A study of Mus musculus with 10 samples.

Results

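The 9 genes described here are Smg1, Smg5, Smg6, Smg8, Smg9, Upf1, Upf2, Upf3a and Upf3b, which encode core factors of nonsense-mediated mRNA decay (NMD). They are 9 of the 22186 genes in the deposited table, chosen by symbol. The set was drawn up because Smg9 was clearly lower with doxorubicin, so its values in that comparison are a description and carry no test. The question put to the other 8 was whether they were lower too. RAW264.7 cells, a wild-type (WT) mouse line with macrophage character that grew out of a tumour, received either plain medium (5 libraries) or doxorubicin dissolved in dimethyl sulfoxide and added to the medium (5 libraries), for 24 h. Both groups shared the same minimum essential medium with serum and antibiotics, and whether medium cultures received the solvent was not given. Doxorubicin is an anthracycline that poisons topoisomerase II and so breaks DNA. Its dose was 10 nM in the sample titles, 100 nM in the series design, which adds a remark that corrects the samples to this value, and 1000 nM by the dilution in the protocol (0.001% by volume of a 100 mM stock). No calculation used the dose. Poly(A) RNA was sequenced, and the deposited values are FPKM, counts of read fragments adjusted for gene length and library size, which allow levels to be compared between genes.

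NMD degrades mRNAs on which translation stops too early, and it also sets the level of many normal mRNAs that carry upstream reading frames or introns after the stop codon. The helicase UPF1 meets the stalled ribosome, UPF2 joins it to UPF3A or UPF3B at exon junction complexes downstream, and the kinase SMG1, held in check by the paired proteins SMG8 and SMG9, phosphorylates UPF1. SMG6 then cuts the mRNA, while SMG5 calls in deadenylation and decapping. Several of these factors' own mRNAs are targets of the pathway. The mRNA of Atf4, a stress response factor active in macrophages, is a known normal target.

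The start regions of Smg9 and Smg8 are shown because the 2 proteins work as a pair while their mRNA levels behaved differently below. Both come from RefSeq on GRCm38.p6, an earlier build than the GRCm39 named in the submitters' processing notes, and were found by symbol, as were those of all 9 genes. Each run holds 250 bases before the annotated start and 20 bases from it, 5′ to 3′ along the gene. Capitals mark matches to the palindromic motif of the factor NRF1, GCGCA followed directly by its reverse complement TGCGC, and to the GC box GGGCGG, searched on both strands.
Smg9 (chr7:24399378-24399647, plus strand): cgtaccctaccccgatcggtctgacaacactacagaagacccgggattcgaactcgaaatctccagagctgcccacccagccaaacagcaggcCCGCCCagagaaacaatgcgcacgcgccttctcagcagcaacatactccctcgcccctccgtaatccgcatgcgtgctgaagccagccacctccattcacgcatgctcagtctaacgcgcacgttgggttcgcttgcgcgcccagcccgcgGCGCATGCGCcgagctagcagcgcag
Smg8 (chr11:87086758-87087027, minus strand): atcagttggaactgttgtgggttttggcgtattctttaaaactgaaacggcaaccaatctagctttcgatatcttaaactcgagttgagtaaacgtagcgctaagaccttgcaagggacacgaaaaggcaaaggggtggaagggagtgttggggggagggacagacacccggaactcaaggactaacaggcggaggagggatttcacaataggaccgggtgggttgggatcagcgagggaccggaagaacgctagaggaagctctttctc
The NRF1 letters spanned the Smg9 start, from position -6 to position 4 counted with the first base of the gene as 1. The GC box in the Smg9 window lay on the opposite strand, and the Smg8 window matched neither motif. Of the 9 factors, 2 held the NRF1 letters, Smg9 and Upf1, as did 0.886% of 32851 annotated start windows of 270 bases. A GC box was present in 7 of 9 and in 34.1% of all windows, and the motifs did not overlap in the window shown. Neither the cyclic AMP response element TGACGTCA (1.73% of all windows) nor TGATGNAA, the core of the amino acid response element (3.69%), was found in the 9 windows. The motifs were picked with the expression values known, and a match describes letters only.

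The libraries carried macrophage transcripts. Of 10 macrophage markers 9 averaged at least 1 FPKM, Mertk being the exception, and they summed to between 1420 and 1560 FPKM in medium and between 1480 and 1690 FPKM with doxorubicin. None of the 18 markers of lymphocytes, fibroblasts, epithelium, endothelium or erythroid cells reached 1 FPKM; the lists summed to at most 0.474 FPKM in any library, and Cd3e, Cd3g, Col1a2, Dcn, Krt8 and Hbb-bs were among those listed at 0 throughout. The p53 targets Cdkn1a and Mdm2 were higher in each doxorubicin library than in each medium library, with means of 51.0 and 147 FPKM for Cdkn1a and 35.9 and 75.6 FPKM for Mdm2. Library totals ran from 338293 to 356111 FPKM, and depth in reads is unknown. Both libraries of replicate number 1 stood apart, with correlations of 0.937 to 0.982 to the other 8, which correlated at 0.976 to 0.998 among themselves. The labels do not state whether the 5 libraries of a group are independent cultures, and the p-values reflect the spread among these libraries, which may be technical. In bulk RNA, fewer cells of one kind and less RNA per cell cannot be told apart.

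In medium, Smg5 had the highest level of the 9 genes at 32.4 ± 8.15 FPKM (SD, n = 5), followed by Upf1 at 24.5 ± 6.92 and Smg9 at 21.3 ± 3.83. Upf3a (15.0 ± 2.83), Smg1 (13.6 ± 1.10), Upf3b (12.5 ± 2.02), Upf2 (11.7 ± 1.10) and Smg8 (11.3 ± 1.81) came next, and Smg6 was last at 6.64 ± 0.677 FPKM. Each gene's range over the 5 medium libraries overlapped that of its neighbour in this order, except that every Smg8 value was above every Smg6 value. All 9 genes passed the filter for testing, an average FPKM of 1 or more across both groups, which 9869 genes met. With doxorubicin, Smg5 (30.8 ± 5.32 FPKM) and Upf1 (25.2 ± 4.28) were still first and second, and Smg6 (5.58 ± 0.444) still last. Smg9 moved from the third place to the fifth, behind Upf3b and Upf3a, at 13.4 ± 1.39 FPKM.

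**Figure D1:**
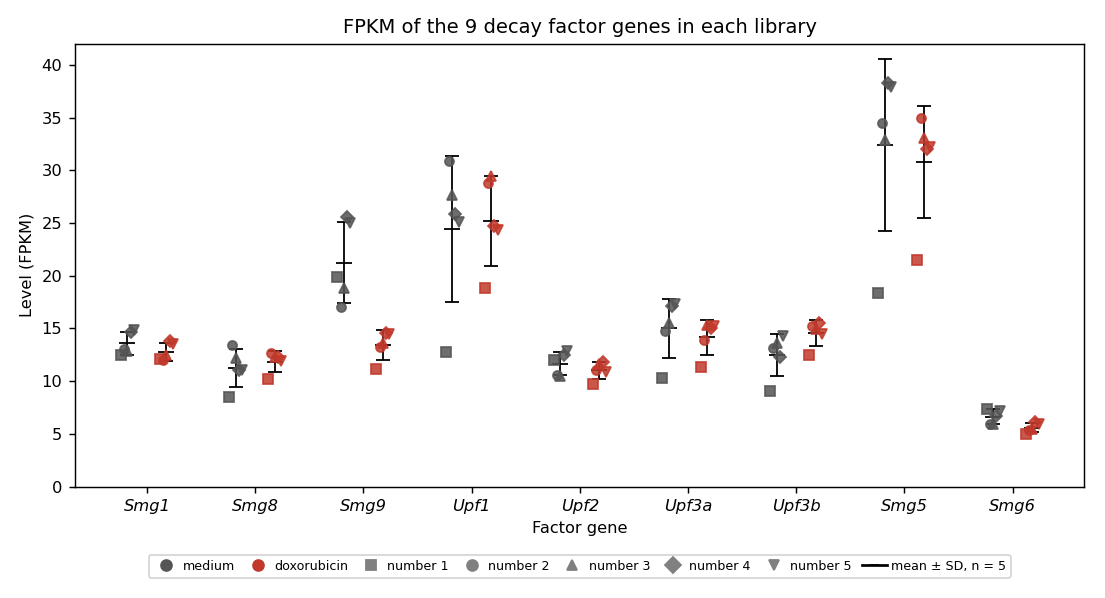
Level in FPKM (vertical axis) of each factor gene in each library, grey for medium and red for doxorubicin, with marker shape for the replicate number and bars for mean ± SD (n = 5). The 5 Smg9 values with doxorubicin (11.2 to 14.6 FPKM) lie below the 5 in medium (17.0 to 25.6), while the groups overlap for the other 8 genes, and the squares of number 1 are low for Upf1 and Smg5.

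Smg9, whose product pairs with SMG8 on the SMG1 kinase, was at 19.9, 17.0, 18.8, 25.6 and 25.0 FPKM in medium libraries 1 to 5 and at 11.2, 13.3, 13.6, 14.6 and 14.5 FPKM in doxorubicin libraries 1 to 5. The highest doxorubicin value was below the lowest medium value, a separation in this direction that 3.97% of all genes tested showed. The mean difference on the log2(FPKM + 1) scale was -0.61, and the mean FPKM was 36.8% lower. Within replicate numbers 1 to 5 the differences were -0.78, -0.33, -0.44, -0.77 and -0.75. Numbers 2 and 3 thus gave the smaller differences, with a mean of -0.39, and numbers 4 and 5 a mean of -0.76. The medium libraries accounted for most of that contrast, since medium 4 and 5 stood 0.48 above medium 2 and 3 on the same scale, and doxorubicin 4 and 5 stood 0.10 above doxorubicin 2 and 3. Without both number 1 libraries the Smg9 difference was -0.57.

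Smg8 encodes the partner protein. It was at 8.54, 13.4, 12.2, 11.1 and 11.1 FPKM in medium and at 10.2, 12.7, 12.3, 12.3 and 11.9 FPKM with doxorubicin, in the order of replicate numbers. The groups overlapped, with number 1 lowest in each. The log2 difference was 0.08 (95% interval -0.16 to 0.31; limma adjusted p = 0.758). Without medium 1 the Smg8 difference was -0.0094. The ratio of Smg9 to Smg8 FPKM was 2.33, 1.27, 1.54, 2.31 and 2.26 in medium and 1.10, 1.05, 1.11, 1.19 and 1.21 with doxorubicin. The doxorubicin ratios thus ran from 1.05 to 1.21. The medium ratio averaged 1.94 ± 0.501 (SD, n = 5) and varied more, from 1.27 to 2.33. Medium 1, with the highest ratio, also had the lowest Smg8 value.

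Smg1, the kinase gene, was at 12.5, 13.0, 12.8, 14.7 and 14.9 FPKM in medium and at 12.1, 12.0, 12.5, 13.8 and 13.5 FPKM with doxorubicin. In all 5 replicate numbers the doxorubicin library was the lower one, by 0.04 to 0.13 on the log2 scale, but the groups overlapped. Its log2 difference of -0.08 (95% interval -0.24 to 0.08) did not pass (limma adjusted p = 0.586; 0.216 with the replicate number as a block). The ratio of Smg9 to Smg1 was 1.31 to 1.74 in medium and 0.923 to 1.11 with doxorubicin. So Smg9 was lower against both of its complex partners in every doxorubicin library, which restates the difference that chose the set.

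**Figure D2:**
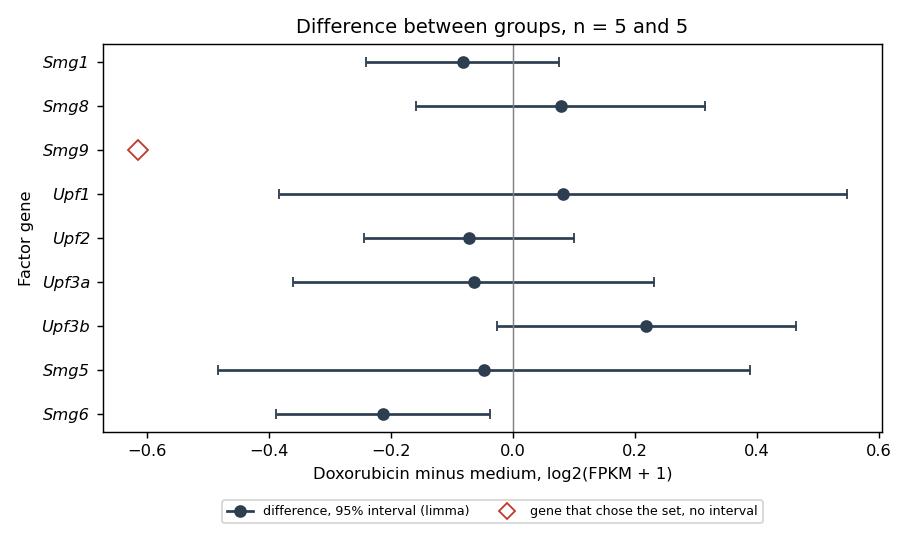
Difference between doxorubicin and medium on the log2(FPKM + 1) scale (horizontal axis) for each factor gene. The 95% intervals are from limma without the replicate block (n = 5 and 5). The open diamond is Smg9 (-0.61), shown without an interval because it chose the set; the 8 other estimates lie between -0.21 and 0.22, and the lowest end of any interval is -0.48.

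Among the 8 factors other than Smg9, 0 were called at an adjusted p under 0.05 by limma fitted over all genes, where 0.912% of genes were called, 0.689% as higher and 0.223% as lower. Leaving out both number 1 libraries also called 0 of 8, beside 5.63% of all genes. At an unadjusted p under 0.05 there was 1 of 8, Smg6, against 17.8% of all genes. An exact permutation test called 0 of 8 and 0 of all genes after adjustment. Even genes whose groups separated fully (3.97% as lower, 2.73% as higher) did not pass it, because 5 against 5 libraries allow few regroupings. No conclusion about the 8 factors is drawn from that test. The 8 differences had a median of -0.06, with 3 above and 5 below 0, beside a median of -0.03 over the 9869 genes tested, of which 5606 were below 0. With the replicate block 1 of 8 was called, Upf3b as higher, where the block called 21.6% of all genes. The other alternatives that called any were a block of 3 sets (numbers 1, 2 with 3, 4 with 5; 2 of 8, background 32.1%), library quality weights (4 of 8, background 37.3%) and the block without both number 1 libraries (1 of 8, background 28.6%). The labels do not group the replicate numbers into these 3 sets. The weights gave the 8 factors a larger share of calls than all genes had, and the other 3 alternatives gave a smaller share. The calls with weights were Smg5, Smg6 and Upf3a as lower and Upf3b as higher.

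Upf1, the helicase gene at the centre of the pathway, was at 12.8, 30.9, 27.7, 25.8 and 25.1 FPKM in medium and at 18.8, 28.8, 29.5, 24.7 and 24.3 FPKM with doxorubicin. Number 1 was the lowest library of each group, by a wide margin in medium. The log2 difference was 0.08 (95% interval -0.38 to 0.55; limma adjusted p = 0.885). It came out at -0.13 without medium 1 and at -0.03 without both number 1 libraries, so no direction can be given for Upf1. Within numbers 2 to 5 it differed by -0.10, 0.09, -0.06 and -0.04.

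Upf2, the adaptor gene between UPF1 and the UPF3 proteins, was at 12.0, 10.6, 10.5, 12.5 and 12.8 FPKM in medium and at 9.76, 11.1, 11.7, 11.8 and 10.9 FPKM with doxorubicin. The groups overlapped, and numbers 2 and 3 were slightly higher with doxorubicin while numbers 1, 4 and 5 were lower. Its log2 difference was -0.07 (95% interval -0.24 to 0.10; limma adjusted p = 0.679). It was -0.03 without doxorubicin 1 and -0.02 without both number 1 libraries.

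The 2 UPF3 genes are diverged copies, UPF3B being the stronger NMD activator of the pair, and how the authors' counting treated reads shared between copies is not given in the sources used here. Upf3a was at 10.3, 14.8, 15.5, 17.1 and 17.3 FPKM in medium and at 11.4, 13.9, 15.4, 15.0 and 15.2 FPKM with doxorubicin (log2 difference -0.06, 95% interval -0.36 to 0.23; limma adjusted p = 0.852). Its groups overlapped. Upf3b was at 9.10, 13.1, 13.6, 12.3 and 14.2 FPKM in medium and at 12.5, 15.3, 15.0, 15.6 and 14.5 FPKM with doxorubicin. It was higher with doxorubicin in all 5 replicate numbers, by 0.02 to 0.42 on the log2 scale, as were 13.2% of genes tested, although the groups overlapped. The mean difference of 0.22 (95% interval -0.03 to 0.46) did not pass without the block (limma adjusted p = 0.332) and passed with it (limma adjusted p = 0.0447, and 0.0485 with the block and without both number 1 libraries). Without medium 1 the Upf3b difference was 0.12. The ratio of Upf3b to Upf3a, looked at after these values were seen, was 0.720 to 0.888 in medium and 0.951 to 1.10 with doxorubicin. The groups did not overlap in this ratio, and how often other gene pairs separate as well was not looked at.

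Smg5, which encodes a UPF1-binding adaptor for deadenylation and decapping, was at 18.4, 34.5, 32.9, 38.3 and 37.9 FPKM in medium and at 21.5, 35.0, 33.1, 32.0 and 32.2 FPKM with doxorubicin. Number 1 was far below the rest in both groups. The log2 difference was -0.05 (95% interval -0.48 to 0.39; limma adjusted p = 0.933). Its sign differed between numbers, with 0.21, 0.02 and 0.01 for numbers 1 to 3 and -0.25 and -0.23 for numbers 4 and 5, and library quality weights called it lower (-0.20, limma adjusted p = 0.0381, range over all alternatives 0.0381 to 0.997).

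Smg6, the endonuclease gene, had the smallest p of the 8 in the fit without a block. It was at 7.39, 5.92, 5.98, 6.69 and 7.20 FPKM in medium and at 5.03, 5.37, 5.43, 6.10 and 5.97 FPKM with doxorubicin. The groups overlapped only where doxorubicin 4 lay above medium 2 and 3 and doxorubicin 5 lay above medium 2. The log2 difference was -0.21 (95% interval -0.39 to -0.04), lower in 5 of 5 replicate numbers, with -0.48 in number 1 and -0.12 to -0.23 in the others. Smg6 did not pass in the fit over all genes (limma adjusted p = 0.200), nor with the replicate block (0.0538), and passed with the block of 3 sets (0.0201) and with library quality weights (0.0222). Without both number 1 libraries the difference was -0.15. In RefSeq the Smg6 gene overlaps Srr and Hic1, Upf1 overlaps Gdf1 and Cers1, and Smg1 and Upf3a overlap non-coding genes only; whether the counting used strand is not given in the sources used here. Among the 8, Smg1 and Smg6 were lower in all 5 replicate numbers, as were 23.1% of genes tested.

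**Figure D3:**
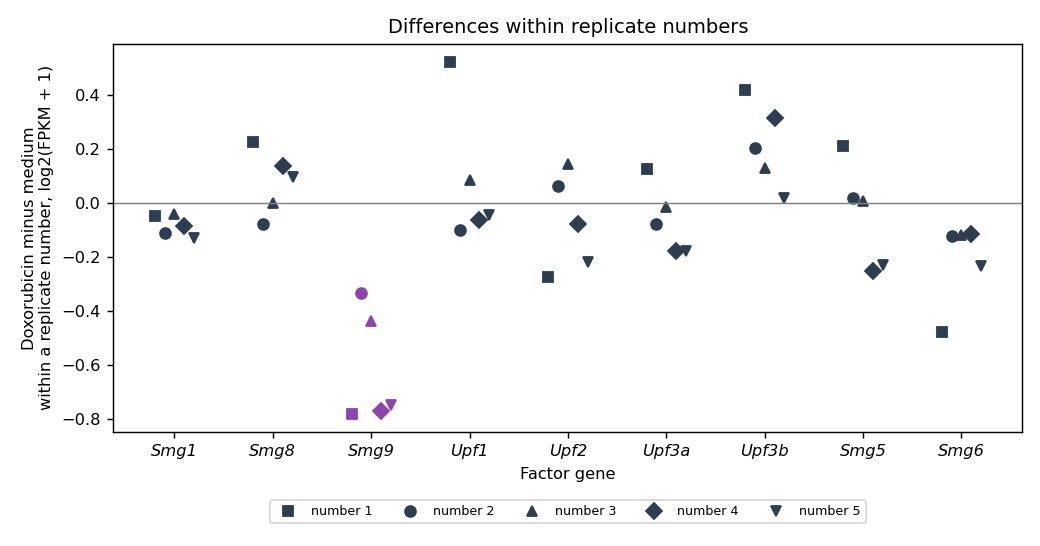
Difference between the doxorubicin and the medium library of the same replicate number on the log2(FPKM + 1) scale (vertical axis), 1 marker per number, with Smg9 in purple. Smg9 (-0.78 to -0.33), Smg1 and Smg6 are below 0 in all 5 numbers and Upf3b is above 0 in all 5; Upf1 shows its one large difference, 0.53, in number 1.

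The number 1 libraries were low for several of these genes together. Medium 1 was the lowest medium library for 6 of the 9 factors (Smg1, Smg5, Smg8, Upf1, Upf3a and Upf3b), as it was for 48.6% of genes tested, and doxorubicin 1 was the lowest of its group for 8 of the 9, all but Smg1, against 42.3%. The difference of medium 1 from the mean of the other medium libraries was -1.04 for Upf1, -0.93 for Smg5, -0.60 for Upf3a, -0.50 for Upf3b and -0.44 for Smg8 on the log2 scale. Over all genes tested, the central 90% of such differences ran from -0.812 to 0.774, so Upf1 and Smg5 were outside it. For Smg9 it was -0.09, for Upf2 0.05 and for Smg6 0.18. With doxorubicin all 9 factors were lower in number 1 than the mean of the others, with differences of -0.60 for Smg5, -0.49 for Upf1, -0.30 for Smg9 and -0.25 for Smg8. Over all genes tested the median there was -0.053 and the central 90% ran from -0.483 to 0.589. Smg5 was outside that range, and Upf1 barely so. The part of library number 1 in the group differences was not tested beyond the values given without it.

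The genes with the pattern most like that of Smg9 were picked by rank out of the whole table, and their likeness over both groups includes the Smg9 difference that chose the set. Over the 10 libraries, the 5 genes whose log2(FPKM + 1) correlated best with that of Smg9 were Pcif1, the cap-adjacent adenosine methyltransferase gene (Pearson r = 0.98, Spearman rho = 0.964), Ift57, an intraflagellar transport gene (0.979 and 0.976), Vars, the valyl-tRNA synthetase gene (0.974 and 0.939), Endov, an endonuclease gene (0.973 and 0.964), and Ccar2, a regulator of deacetylation and transcription (0.972 and 0.964). Each was lower in all 5 doxorubicin libraries than in all 5 medium libraries, as Smg9 was, which the choice by likeness makes likely. Vars, for example, was at 92.7 ± 8.60 FPKM in medium and 70.2 ± 6.53 FPKM with doxorubicin. With the group means removed, r ran from 0.89 for Ccar2 to 0.944 for Ift57. Of the other 8 factors, Smg6 was the closest to Smg9 (r = 0.868, rank 366 of 9868 genes), then Smg1 (0.748) and Upf2 (0.707), while Smg8 (-0.229) and Upf3b (-0.344) had negative values. With the group means removed, Upf2 (0.877) and Smg1 (0.831) came close to Ccar2, Smg6 was at 0.701, Upf3b at 0.302 and Smg8 at -0.0461. The choice of the 5 genes makes their high r likely here too, and how all genes range in r with the group means removed was not looked at. These correlations describe 10 libraries in 2 groups that also share replicate numbers, and no p is given.

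**Figure D4:**
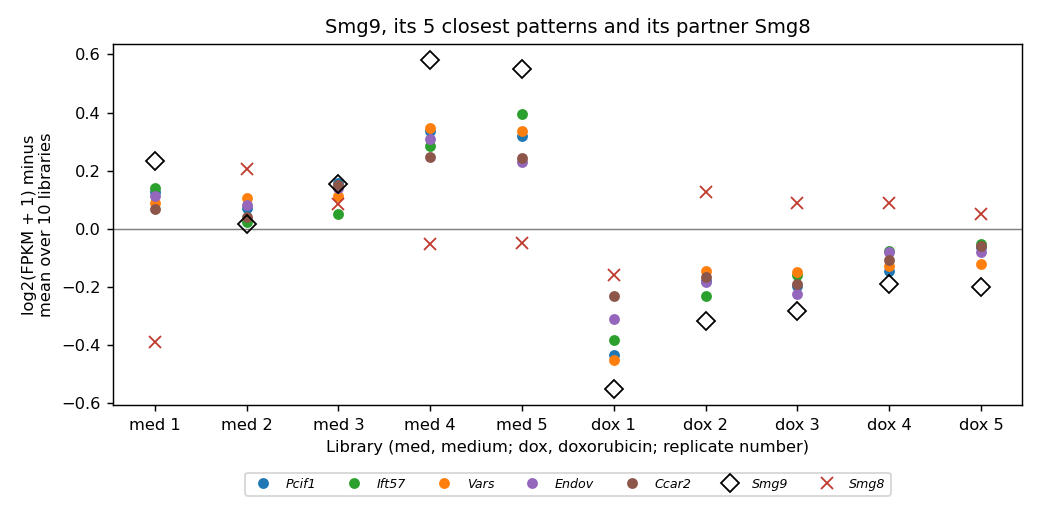
Deviation of log2(FPKM + 1) from the mean over 10 libraries (vertical axis) in each library (horizontal axis) for Smg9 (open diamonds), the 5 genes with the closest pattern (filled circles) and Smg8 (crosses). The circles follow the diamonds, highest in medium 4 and 5 and lowest in doxorubicin 1, whereas Smg8 is lowest in medium 1.

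Beyond the 9 factors, 5 lists covered proteins that work with them. With all 10 libraries, none of the members was called by limma without the block, where 0.912% of all genes were. With so small a share, no conclusion about the members is drawn from that. Without both number 1 libraries, 2 exon junction complex genes and 2 mRNA decay enzymes were called lower, where 5.63% of all genes were called. Of 12 NMD accessory factors, 2 were higher and 3 lower at an unadjusted p under 0.05 (6.62% and 11.2% of all genes tested), and the median difference was 0.05. With the block 0 were higher and 3 lower, where 7.81% and 13.7% of all genes were. These were Pnrc2, a decapping adaptor that binds UPF1 (53.8 ± 10.7 to 36.6 ± 7.06 FPKM, log2 difference -0.54, limma adjusted p = 0.00584 with the block and 0.130 without), Dhx34, a helicase gene that promotes UPF1 phosphorylation (10.0 ± 1.22 to 7.72 ± 0.429 FPKM, -0.33, limma adjusted p = 0.0167 with the block and 0.101 without) and Ruvbl2, an ATPase subunit gene needed for SMG1 levels (-0.17, limma adjusted p = 0.0445 with the block). Dhx34 was at 8.54 to 11.0 FPKM in medium and 7.05 to 8.25 FPKM with doxorubicin, without overlap, as for 3.97% of all genes tested. The cap-binding gene Ncbp2 was the reverse, each doxorubicin library lying above each medium library, as for 2.73% of all genes tested (46.7 ± 10.8 and 59.4 ± 1.21 FPKM, limma adjusted p = 0.233, and 0.0518 with the block).

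The exon junction complex, which marks spliced junctions for UPF3B, had a median difference of -0.05 over 10 genes, and 0 had an unadjusted p under 0.05. With the block 0 were higher and 2 lower (7.81% and 13.7% of all genes), Magohb, a second copy of the Magoh core subunit (-0.37, limma adjusted p = 0.00855), and Pym1, which takes the complex apart (-0.22, limma adjusted p = 0.0206). The RNA helicase core Eif4a3 was at 123 ± 24.2 and 127 ± 15.6 FPKM. Rbm8a, another member, was at 49.0 ± 7.09 and 43.4 ± 2.04 FPKM (-0.16, limma adjusted p = 0.105 with the block). It was called lower with the block once both number 1 libraries were left out (limma adjusted p = 0.00526). Differences of the 10 genes were above 0 for 5 and below 0 for 5. Magoh and Magohb encode near-identical proteins, and counting may have split reads between them. Among 32 tested mRNA decay enzymes, 2 were higher and 6 lower at an unadjusted p under 0.05, and the median was -0.02. At this p, 6.62% of all genes were higher and 11.2% lower. With the block 1 was higher and 5 were lower, where 7.81% and 13.7% of all genes were, so the members' share was near that of all genes. The 5 were the deadenylase gene Parn (-0.27, limma adjusted p = 0.0105), the exosome subunit genes Exosc8 (-0.19, 0.0275) and Exosc3 (-0.20, 0.0279), the decapping gene Dcp1a (-0.17, 0.0379) and the exonuclease gene Xrn1 (-0.18, 0.0497). The gene with the higher level was Wdr61, of the exosome's helper complex (0.24, limma adjusted p = 0.0372). Xrn1 lost its call with the block once both number 1 libraries were left out (0.0617). Of the 32, 3 had each doxorubicin library below each medium library, Dcp1a, Edc3 and Xrn1, as had 3.97% of all genes. The reverse held for 0 of the 32, beside 2.73% of all genes.

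SMG1 belongs to a family of large kinases (PIKKs) whose folding depends on TELO2, TTI1 and TTI2. Of 8 tested kinase and assembly genes, 0 were higher and 1 lower at an unadjusted p under 0.05 (6.62% and 11.2% of all genes), with a median of 0.00 to 2 decimals. With the block 1 was higher and 1 lower, beside 7.81% and 13.7% of all genes, again near the share of all genes. Tti2 was at 7.42, 8.73, 5.44, 6.76 and 8.46 FPKM in medium and at 4.34, 7.07, 3.80, 5.02 and 4.34 FPKM with doxorubicin. It was lower in each replicate number, though doxorubicin 2 lay within the medium range (-0.51, limma adjusted p = 0.00677 with the block and 0.131 without). Atm, the DNA break kinase gene, was higher (0.23, limma adjusted p = 0.0481 with the block), a call lost without both number 1 libraries (0.0542). Telo2 and Tti1 were not called in either fit.

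Of 14 transcripts known to be degraded by NMD, 7 were in the table and tested, the stress genes Atf4, Atf3, Ddit3, Gadd45a, Gadd45b and Ern1 and the gene Tbl2; the small nucleolar RNA host transcripts of the list were not analysed here. All 7 had differences below 0, as had 5606 of the 9869 genes tested. Their median was -0.68 beside -0.03 over all genes tested, and 4 of 7 were lower at an unadjusted p under 0.05 (11.2% of all genes). With the block 0 were higher and 5 lower, beside 7.81% and 13.7% of all genes. The list was chosen with earlier results of these data known, so these counts are a description and not a test. Several of the 7 are induced by the same factor, as given below, so they are not separate observations. Gadd45b, at -0.19, came out at 0.07 without both number 1 libraries, so that 6 of the 7 were then below 0. Ddit3, a stress transcription factor gene, was at 109, 20.1, 28.2, 118 and 128 FPKM in medium and at 26.2, 9.05, 9.87, 40.5 and 40.5 FPKM with doxorubicin (-1.53, limma adjusted p = 3.38e-04 with the block and 0.228 without). Medium 1, 4 and 5 were several times higher than medium 2 and 3, and doxorubicin was lower in each number. Gadd45a, a growth arrest gene, had the same layout at 8.55, 2.72, 3.10, 12.5 and 16.7 FPKM in medium and 3.78, 1.48, 1.48, 3.93 and 4.17 FPKM with doxorubicin (-1.11, limma adjusted p = 0.00439 with the block). Atf4, the transcription factor gene of the integrated stress response (-0.68, limma adjusted p = 7.25e-04), Atf3 (-0.75, 0.0129) and Ern1 (-0.60, 0.0175) were also called with the block. Gadd45b and Tbl2 were not. Several members of this list are also induced through ATF4, so their levels do not measure decay by itself, and FPKM per gene does not separate isoforms.

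**Figure D5:**
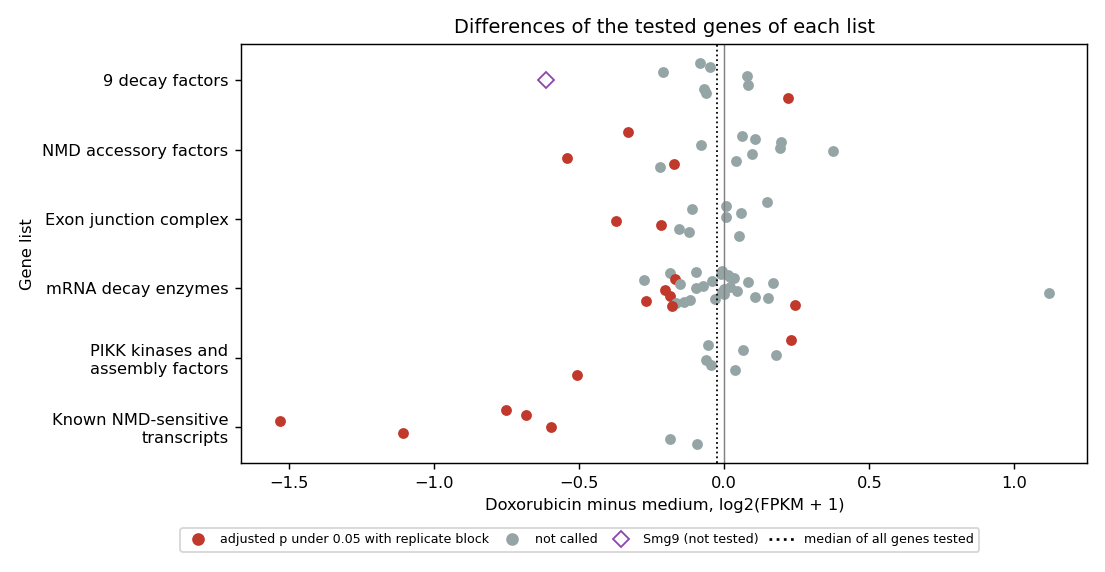
Difference between doxorubicin and medium on the log2(FPKM + 1) scale (horizontal axis) for each tested gene of the 9 factors and the 5 lists (rows), red where the replicate block gave an adjusted p under 0.05, grey where not, with Smg9 as an open diamond and the median of all genes (-0.03) dotted. The NMD-sensitive stress transcripts reach -1.53, and the grey point at 1.12 is the exosome gene Exosc6, at 0.442 ± 0.409 and 2.97 ± 2.85 FPKM.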

How the data were processed

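Poly(A) RNA of 10 RAW264.7 libraries was compared, 5 per group. The authors deposited FPKM values per gene symbol, 1 column per library. GRCm39 is named as the genome in the submitters' processing notes; the aligner, counter, annotation and filters are not given in the sources used here. Columns were matched to samples by library name. Whole-read steps were looked for among low values and not found, so depth is unknown and no counting interval is given.

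Values were analysed as log2(FPKM + 1), and genes averaging 1 FPKM or more were tested with limma 3.58.1 in R 4.3.3, two-sided, on group alone with the trend option on. Adjustment was by Benjamini-Hochberg over all genes tested, at 0.05. Fold changes on this scale understate changes of low genes. The fit was tested on simulated data with libraries drawn independently. That simulation held no effect of replicate number, so it does not bear on the unblocked fit under such an effect. Alternatives covered the pseudocount, the filter, scaling, blocks, weights, an exact permutation test and leaving out libraries. Titles give both groups numbers 1 to 5, and the deviations from group means of same-numbered libraries correlated at 0.794, 0.7, 0.667, 0.524 and 0.547; each was above 0.1, so the number is used as a block where it changes a call.

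The 9 factors and the 5 lists were chosen with earlier results of these data known. Named genes are the 9 factors, list members called with or without the block (up to 6 a list), the 5 genes most like Smg9 (predicted models left out), Cdkn1a and Mdm2. Others (Ncbp2, Eif4a3, Rbm8a, Edc3, Exosc6, members named as not called) were chosen after their values were seen.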

Additional observations from a re-analysis of the deposited data

Results flagged for a closer look

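In 3 of 18 sets of 5 libraries (9 factors in 2 groups), 1 library lay far from the other 4, with a gap above 0.71 of the whole range, which chance gives in about 1 in 20 sets. Smg5 was at 18.4 FPKM in medium replicate 1, against 32.9 to 38.3 in the other medium libraries, and at 21.5 FPKM in doxorubicin replicate 1, against 32.0 to 35.0 in the other doxorubicin libraries. Smg8 was at 10.2 FPKM in doxorubicin replicate 1, against 11.9 to 12.7. All 3 are libraries of replicate number 1, which stand apart over the whole table.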

How the results depend on the processing

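Over all genes tested, limma called 90 genes, 22 of them lower. The count was 57 with a mean of at least 5 FPKM (40 higher and 17 lower, fewer genes tested), 2127 with the replicate block (1356 lower), 3168 with the block of 3 sets (1963 lower), 3681 with library quality weights (2302 lower), 0 with the exact permutation test (0 lower), 556 without both number 1 libraries (273 lower) and 2827 without them and with the block (1817 lower). Leaving out 1 library at a time gave 15 to 226 genes, of which 0 to 90 were lower, the most without medium 1. Counts moved by more than 1.5 times also without medium 2 (57), 3 (45), 4 (15) and 5 (34) and without doxorubicin 1 (49), 2 (53), 3 (33), 4 (24) and 5 (19). The permutation test has few regroupings to draw on, so no conclusion is drawn from its 0. The cause of the other moves was not tested.

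Of the 8 factors other than Smg9, 0 were called, against 1 with the replicate block, 2 with the block of 3 sets, 4 with the weights and 1 with the block and without both number 1 libraries. Over all genes tested the shares called in these settings were 21.6%, 32.1%, 37.3% and 28.6%, so calls rose across the whole table. In the same order, NMD accessory factors (12 tested) went from 0 to 3, 5, 6 and 4, and the exon junction complex (10 tested) to 2, 3, 4 and 3. The mRNA decay enzymes (32 tested) went to 6, 10, 14 and 8, and PIKK kinases and assembly factors (8 tested) to 2, 3, 2 and 1. Known NMD-sensitive transcripts (7 tested) went to 5, 5, 6 and 5. Without both number 1 libraries and with no block, 5.63% of all genes were called. The exon junction complex then had 2 of 10 called, Magohb and Rbm8a, both lower. The mRNA decay enzymes had 2 of 32, Exosc3 and Exosc8, both lower. Leaving out 1 library gave the exon junction complex 0 to 1 calls of 10, the 1 without medium 1, where 226 of the 9869 genes tested were called. The block changed no call among the 8 factors other than that of Upf3b.

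The difference changed sign for Smg5 without doxorubicin 1 (0.072), medium 4 (0.02) or medium 5 (0.02), in a leave-one-out range of -0.23 to 0.072. It did so for Smg8 without medium 1 (-0.0094), for Upf3a without doxorubicin 1 (0.0075), and for Upf1 without medium 1 (-0.13), with weights (-0.029) and when both number 1 libraries were dropped (-0.029 in each fit, blocked or unblocked). Leave-one-out ranges reached 0.14 for Smg8, 0.18 for Upf1 and -0.18 for Upf3a. The Smg9 value ran from -0.72 to -0.55. The signs of Smg1, Smg6, Upf2 and Upf3b did not change, although the blocks, filters, trend and permutation test leave an estimate as it is; the values ran from -0.12 to -0.04 for Smg1, -0.25 to -0.15 for Smg6, -0.12 to -0.02 for Upf2 and 0.12 to 0.27 for Upf3b. The median of the 8 factors ran from -0.12 to 0.04 over single libraries left out. Depth in reads is unknown, so no limit of detection can be given. Adjusted p over the alternatives ran from 0.0201 to 0.411 for Smg6 and from 0.0158 to 0.521 for Upf3b.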
